A study of Mus musculus with 24 samples.

Results

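The genes described here are 40 genes of the glutamate synapse. They encode subunits of the AMPA, kainate, NMDA and delta receptors, metabotropic glutamate receptors, postsynaptic scaffold proteins, the CaMKII kinase and 3 regulators of the dendritic spine. Some of the receptors also act, or mostly act, on presynaptic terminals or in other cells, as given with each class. They were chosen as a list of symbols, with no threshold on any measured value, and were looked up in a table of read counts per gene from mouse entorhinal cortex. All 40 were found among the 55417 genes of that table, and 40 of 40 passed the filter on low counts that left 16767 genes for testing. They comprised 22 receptor genes (4 AMPA, 5 kainate, 6 NMDA, 1 delta and 6 metabotropic) and 18 genes for proteins inside the spine (4 MAGUK, 4 SAPAP, 3 Shank and 2 Homer scaffolds, 2 CaMKII subunits and 3 spine regulators).

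The tissue was subdissected entorhinal cortex of adult mice aged 2 to 4 months, sequenced as bulk RNA in 24 libraries. All 4 groups, the controls included, came from a cross of Nop-tTA Line S, which is MMRRC strain #31779, with TRE-GlyCl-YFP Line 9531, which is Jax strain #29301. Their genotype was tg/tg, so no group lacked the transgenes. The groups were Vehicle (4 female and 2 male libraries) and tissue taken at 1, 2 or 3 days after activation of GlyCl (Day1, Day2 and Day3, each of 3 female and 3 male libraries), which makes n = 6 in every group. GlyCl is a ligand-gated chloride channel, and opening it silences the neurons that carry it; in this cross the neuropsin promoter drives it, through the tetracycline transactivator, mainly in a subset of superficial entorhinal neurons. Bulk tissue mixes those neurons with all other cells. The labels name neither the activating agent nor the day on which vehicle tissue was collected, and they give a sex and an animal number for each library, with 24 different numbers over the 24 libraries.

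Fast excitation in cortex runs through AMPA receptors, which glutamate opens to sodium, while NMDA receptors admit calcium when glutamate binds a depolarised spine. That calcium activates CaMKII, and CaMKII adjusts how many AMPA receptors the spine holds. MAGUK proteins anchor the receptors, SAPAP proteins link MAGUK to Shank, Shank links onward to Homer and to actin, and Homer ties in the group of metabotropic receptors that releases calcium from internal stores. Lasting changes in firing are known to scale these components, in a process called homeostatic plasticity.

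Library totals ran from 16.6 to 23.7 M reads. Values are CPM, counts scaled to a common library size, after TMM scaling, and log2 fold changes come from edgeR's quasi-likelihood test with sex in the model, given ± standard error (SE); a gene was called changed at a Benjamini-Hochberg adjusted p under 0.05 over the 16767 genes. Of the libraries, 8 were rich in transcripts of the choroid plexus, the epithelium that makes cerebrospinal fluid (Vehicle 5, Day1 2 and 4, Day2 4 and 6, Day3 2, 3 and 6), where Ttr was at least 562 CPM against at most 25.9 CPM in the other 16. Defining neuronal markers were present in every library, as the tissue label requires: the summed level of 8 pan-neuronal genes was 6970 to 7650 CPM over the 24 libraries, and none of the 8 was at 0 in any. EYFP, the reporter of the transgene, stood at 94.3 to 139 CPM in Vehicle, 75.9 to 134 CPM in Day1, 81.6 to 118 CPM in Day2 and 50.9 to 77.4 CPM in Day3.

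The comparison of each day with vehicle asked what happened to these transcripts after the channel was activated. At day 1, 3 of the 40 genes were lower: Synpo, Grasp and Rnd1, the 3 genes classed here as spine regulators. Their mean levels were 17% (Synpo), 23% (Grasp) and 24% (Rnd1) below vehicle, and by edgeR no receptor, scaffold or CaMKII gene was called in either direction. Across all genes tested, 0.0656% were called at day 1, and 0.0537% were called lower. At day 2 and at day 3 against vehicle, 0 of the 40 were called by edgeR, DESeq2 or limma voom. The list and its role classes were drawn up with earlier results of these data known. Its share of called genes, or of genes at an unadjusted p under 0.05 below, is therefore not independent evidence of a direction. Nor is the calling of all 3 genes of this class. Another 24 spine actin and kinase genes were placed outside the 40, among 62 other synapse genes of which edgeR called 0 at day 1. These values therefore do not describe spine regulators in general.

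Synpo (ENSMUSG00000043079.18) encodes synaptopodin, an actin-associated protein of the spine apparatus, the calcium store of large spines. It measured 265 to 290 CPM in the 6 vehicle libraries (median 280), 221 to 247 CPM at day 1 (median 227), 232 to 282 CPM at day 2 (median 246) and 242 to 280 CPM at day 3 (median 270). Each of the 6 day 1 libraries lay below the lowest vehicle library, whereas the day 2 and day 3 ranges overlapped the vehicle range. Synpo fell by 0.26 ± 0.05 at day 1 on the log2 scale (adjusted p = 0.0244), from a mean of 277 ± 9.47 CPM to 231 ± 11.5 CPM (SD, n = 6). At day 2 and day 3 the log2 fold changes were -0.13 ± 0.05 and -0.06 ± 0.05 (adjusted p = 0.759 and 0.999).

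Grasp (ENSMUSG00000000531.6) encodes tamalin, which binds group 1 metabotropic glutamate receptors and takes part in their trafficking. Vehicle libraries held 71.0 to 89.5 CPM (median 80.4), day 1 libraries 57.3 to 64.3 CPM (median 62.7), day 2 libraries 63.5 to 83.0 CPM (median 74.4) and day 3 libraries 66.2 to 86.9 CPM (median 74.7). The day 1 libraries sat close together below every vehicle library and also below every day 3 library, while day 2 overlapped both. The day 1 fall was 0.36 ± 0.07 on the log2 scale (adjusted p = 0.0359), from 79.7 ± 6.81 to 61.6 ± 2.84 CPM (SD, n = 6). Against vehicle, Grasp differed by -0.12 ± 0.07 at day 2 and -0.06 ± 0.07 at day 3 (adjusted p = 0.980 and 0.999).

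Rnd1 (ENSMUSG00000054855.14) encodes a small GTP-binding protein that lacks GTPase activity and acts on the actin cytoskeleton. Its CPM were 23.3 to 27.2 in vehicle (median 25.1), 16.7 to 21.9 at day 1 (median 19), 19.6 to 25.8 at day 2 (median 21.5) and 19.6 to 25.5 at day 3 (median 23.8). The vehicle and day 1 ranges did not meet, and the ranges of the later days spanned the gap between them. Rnd1 fell by 0.40 ± 0.08 at day 1 on the log2 scale (adjusted p = 0.0359), from 25.2 ± 1.70 to 19.1 ± 2.31 CPM (SD, n = 6). The later values were -0.20 ± 0.08 at day 2 and -0.12 ± 0.08 at day 3 (adjusted p = 0.844 and 0.999).

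**Figure D1:**
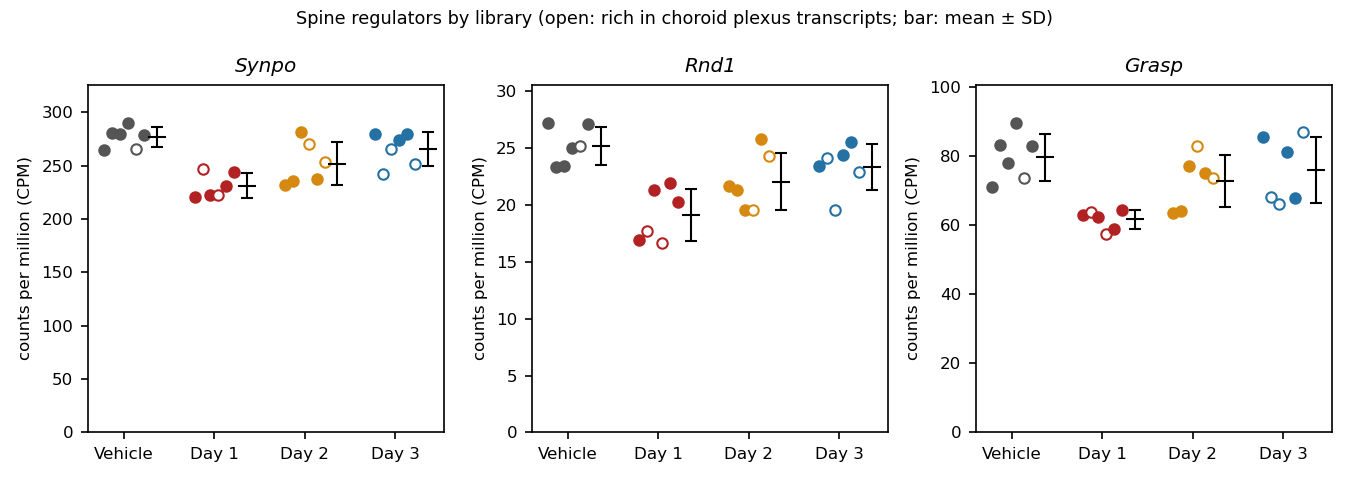
CPM of Synpo, Rnd1 and Grasp in each of the 24 libraries by group, on linear axes that start at 0, with the mean and SD of each group (n = 6) beside the points and open points for the 8 libraries rich in choroid plexus transcripts. The day 1 points lie below the vehicle points for each gene, and the day 2 and day 3 points lie between or overlap them.

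In bulk tissue, fewer cells of a type and less RNA per cell cannot be told apart. Beside the fall of the 3 spine regulators, 3 of 8 pan-neuronal genes (list median -0.02) and 3 of 8 interneuron genes (list median -0.12) lay below vehicle at day 1 at an unadjusted p under 0.05, where 7.25% of all genes had such a p in either direction. None was called by edgeR, DESeq2 or limma voom. Of the 6 excitatory neuron markers, 0 had an unadjusted p under 0.05 at day 1 by any of these tools. By edgeR, 3 of the 6 lay above vehicle and 3 below (list median -0.02). Of 8 astrocyte markers, 2 had such a p by edgeR, 1 higher and 1 lower. Summed interneuron markers ranged over 1110 to 1230 CPM in vehicle and 1040 to 1150 CPM at day 1. Summed excitatory neuron markers ranged over 2490 to 2730 CPM in vehicle and 2340 to 2650 CPM at day 1. Immediate early genes, which neuronal firing induces (Fos, Fosb, Junb, Arc, Egr1, Egr2, Egr4, Nr4a1 and Npas4), had a median of -0.34 at day 1. The estimates were below 0 in 9 of 9 cases, but Npas4 was level with vehicle at -0.00 ± 0.52. Fos (-0.18 ± 0.39), Junb (-0.14 ± 0.29), Arc (-0.34 ± 0.42) and Nr4a1 (-0.21 ± 0.29) also lay within their errors. An unadjusted p under 0.05 was reached by 3 of the 9, with none called by the 3 tools. The day 1 values with the immediate early gene level in the model are given with the slopes further on. The part of neuronal firing or of the neuronal marker lists in the fall was not tested.

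Choroid plexus markers were 10 of 10 above vehicle at day 1 (median 0.59, none at an unadjusted p under 0.05), with a summed level of 145 to 1900 CPM in vehicle and 180 to 1590 CPM at day 1. Without the 8 choroid-rich libraries, Synpo stayed called at day 1, and Grasp (-0.37, adjusted p = 0.0582) and Rnd1 (-0.33, adjusted p = 0.152) did not pass, while Grin2c passed (-0.37, adjusted p = 0.0474). Leaving out 1 library ended calls as well: 0 of the 40 genes were called at day 1 without Day1 1, Day1 4, Vehicle 4 or Vehicle 6, and 1 (Rnd1) without Day1 3 or Day1 5. Rnd1 was also lost without Vehicle 1 or 5, Day1 2 or 6 or Day2 2, and Grasp without Vehicle 2. Under upper-quartile factors Grasp did not pass (adjusted p = 0.0502), and with library totals alone neither Grasp nor Rnd1 did.

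**Figure D2:**
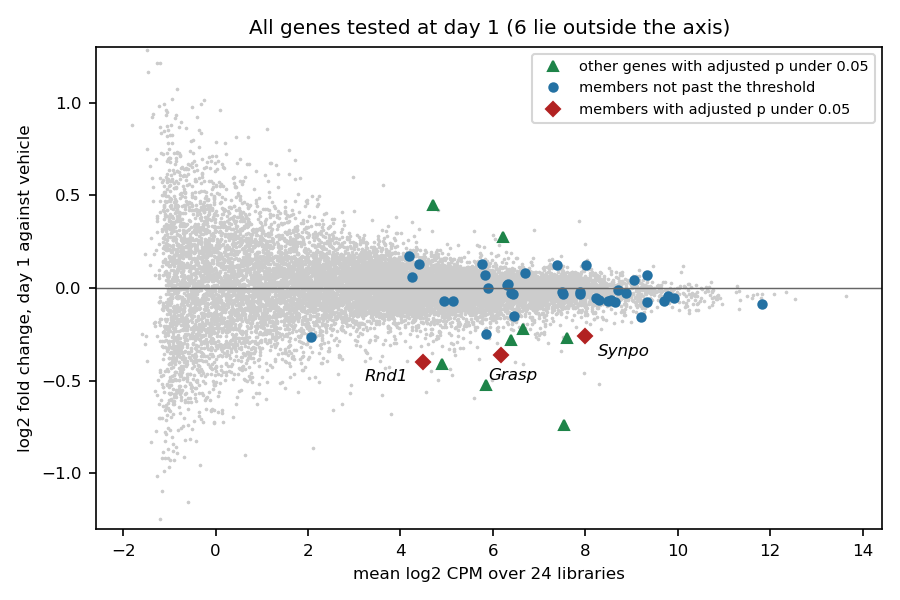
Log2 fold change at day 1 against mean log2 CPM over 24 libraries for the genes tested, with the 40 synapse genes as circles (not called) or diamonds (called) and other called genes as triangles. Synpo, Grasp and Rnd1 are 3 of the 11 genes called at day 1, and 9 of the 11 lie below 0.

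Over the 40 genes at day 1, 12 (30%) had an unadjusted p under 0.05, 3 higher and 9 lower, where 7.25% of all genes tested did. The 12 include the 3 called genes. Of all genes, 8202 had a mean under 4 log2 CPM, as did 1 of the 18 genes for proteins inside the spine and 0 of the 22 receptor genes. The part of expression level in this share was not tested. The median log2 fold change of the 40 was -0.03, against 0.00 over all genes. The receptors and the intracellular genes differed in how their values fell around 0. Of the 22 receptor genes, 13 were above vehicle and 9 below (median 0.02, range -0.25 to 0.17). All 18 scaffold, CaMKII and spine regulator genes were below vehicle (median -0.07, range -0.40 to -0.02), and 15 of 15 remained below 0 when Synpo, Grasp and Rnd1 were set aside (median -0.06). This split was noticed after the values were seen and the difference between the groups was not tested.

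The count of 18 of 18 below vehicle at day 1 was the same with DESeq2 size factors, with upper-quartile factors, with library totals alone and without the 8 choroid-rich libraries. It moved with expression level in the table as a whole: 69.6% of the 703 genes at a mean of at least 8 log2 CPM were below vehicle at day 1 (median -0.02), 55.2% of those from 6 to 8, 50% of those from 4 to 6 and 45.3% of those under 4. Of the 18 intracellular genes, 10 lay in the highest of these ranges, 6 in the next and 1 in each of the lower ranges. Among the 6 receptor genes in the highest range, 3 were below vehicle. At day 2 and day 3, 14 of the 18 were below vehicle, against 49.7% and 51.0% of all genes of any expression level. Shares by level were taken for day 1 alone. The part of expression level in the counts of any day was not tested.

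**Figure D3:**
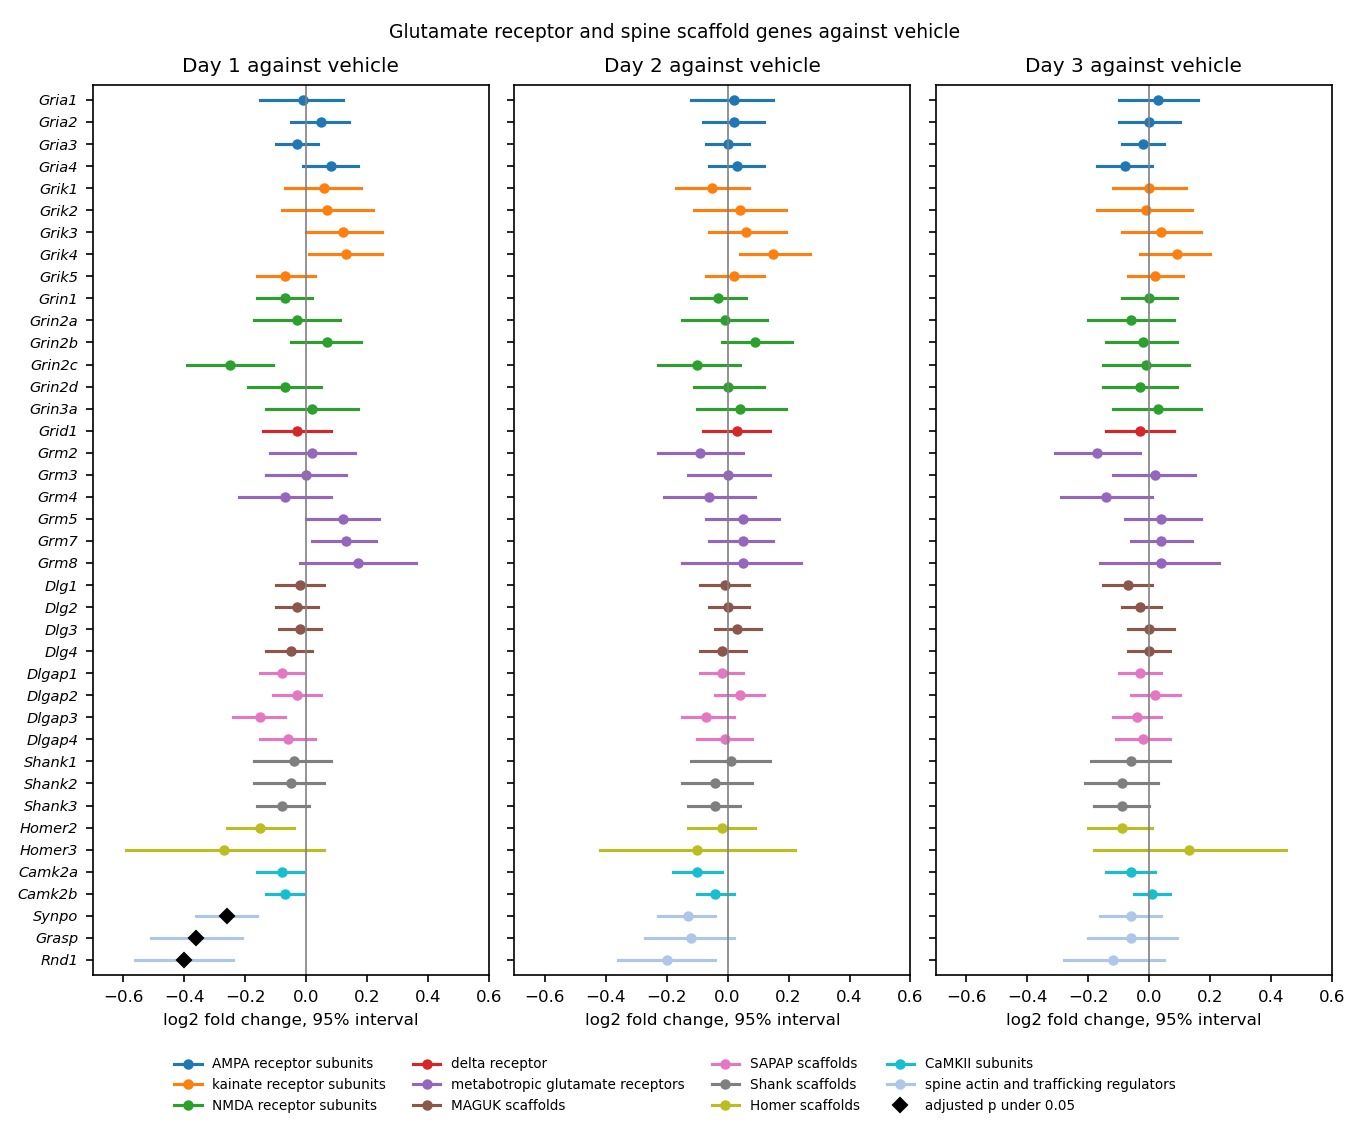
Log2 fold change of each of the 40 genes against vehicle at day 1, day 2 and day 3, with the 95% interval of the fit, coloured by role and with black diamonds at an adjusted p under 0.05. The 3 diamonds are Synpo, Grasp and Rnd1 at day 1, and the scaffold and CaMKII genes lie to the left of 0 in that panel.

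AMPA receptors are assembled from 4 subunits, of which Gria2 makes the channel impermeable to calcium. None of the 4 was called against vehicle on any day, and the log2 fold changes over the 3 days ran from -0.08 to 0.08. Gria2, the most highly counted, stood at 525 ± 33.6 CPM in vehicle (473 to 560), 548 ± 27.8 at day 1 (510 to 584), 537 ± 37.8 at day 2 (489 to 596) and 532 ± 44.1 at day 3 (457 to 590), with group ranges that overlapped throughout. Gria4, a subunit rich in interneurons, had the smallest joint p of the class: it measured 103 ± 6.17 CPM in vehicle (97.3 to 115), 110 ± 7.96 at day 1 (100 to 121), 106 ± 5.58 at day 2 (99.0 to 112) and 98.2 ± 1.90 at day 3 (96.2 to 102). Its day 3 libraries clustered at the lower end of the vehicle range, and its difference between day 3 and day 1 was -0.16 ± 0.04 (adjusted p = 0.110 by edgeR and 0.0441 by DESeq2). Gria1, the subunit that is inserted during potentiation, and Gria3 were within 0.03 of vehicle on the log2 scale on each day.

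Kainate receptors act both at synapses and on transmitter release, with Grik1, Grik2 and Grik3 as low-affinity and Grik4 and Grik5 as high-affinity subunits. None of the 5 was called on any day. Grik4 was 19.8 ± 1.10 CPM in vehicle (18.6 to 21.4), 21.6 ± 1.12 at day 1 (20.3 to 23), 22 ± 1.14 at day 2 (20.3 to 23.5) and 20.9 ± 1.39 at day 3 (19.3 to 22.8). Its libraries at each day ran higher than vehicle but overlapped it, and the log2 differences of 0.13, 0.15 and 0.09 did not pass (adjusted p = 0.590, 0.771 and 0.999). Grik5, the most highly counted of the class, held 317 ± 15.2 CPM in vehicle (299 to 340), 302 ± 16.9 at day 1 (287 to 333), 322 ± 18.7 at day 2 (300 to 353) and 321 ± 16.4 at day 3 (297 to 338). Grik1, Grik2 and Grik3 lay between -0.05 and 0.12 over the 3 days.

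NMDA receptors pair the obligatory Grin1 subunit with Grin2 subunits that set the kinetics, and Grin3a lowers the calcium current. None of the 6 genes was called against vehicle. Grin2c, a slowly deactivating subunit that in forebrain is known from astrocytes and some interneurons, had the smallest joint p among the receptors. It measured 57.3 to 69.7 CPM in vehicle (median 59.3), 44.3 to 63.1 at day 1 (median 49.8), 53.7 to 61.8 at day 2 (median 57.0) and 57.1 to 67.5 at day 3 (median 60.4). At day 1, 5 of 6 libraries lay below the lowest vehicle library, and the exception was Day1 2, a choroid-rich library, at 63.1 CPM. The difference of -0.25 ± 0.07 at day 1 did not pass (adjusted p = 0.203), nor did 0.24 ± 0.07 for day 3 against day 1 (adjusted p = 0.130), and both passed without Day1 2. Without the 8 choroid-rich libraries they were -0.37 (adjusted p = 0.0474) and 0.39 (adjusted p = 0.0347).

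Among the other NMDA subunits, Grin2b, which predominates early in life and persists in adult forebrain, held 623 ± 33.9 CPM in vehicle (568 to 674), 659 ± 30 at day 1 (617 to 695), 672 ± 77.9 at day 2 (580 to 816) and 620 ± 56.8 at day 3 (538 to 707). The spread at day 2 was more than that of the other groups, and its range overlapped that of vehicle. Grin1, Grin2a, the faster subunit of mature synapses, Grin2d and Grin3a differed from vehicle by -0.07 to 0.04 over the 3 days. Grid1, a delta receptor that glutamate does not gate and that acts in synaptic adhesion, was 86.7 ± 6.84 CPM in vehicle (78.6 to 98.9), 85.4 ± 5.99 at day 1 (78.7 to 94.5), 88.9 ± 5.23 at day 2 (82.6 to 97.9) and 85.4 ± 5.67 at day 3 (78.8 to 94), with log2 differences no larger than 0.03 in size.

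Metabotropic glutamate receptors signal through G proteins: Grm5 couples to calcium release, and Grm2, Grm3, Grm4, Grm7 and Grm8 lower cyclic AMP, mostly on presynaptic terminals and, for Grm3, on glia as well. None of the 6 was called on any day. At day 1, 5 of the 6 lay above vehicle and Grm4 below. Grm5, the most highly counted, was 247 ± 16.5 CPM in vehicle (231 to 275), 271 ± 18.2 at day 1 (249 to 288), 259 ± 26.4 at day 2 (238 to 306) and 258 ± 22.2 at day 3 (231 to 296), ranges that overlapped at every day. Grm2, which had the smallest joint p of the class, was 82.5 ± 7.64 CPM in vehicle (73.9 to 93.4), 83.3 ± 7.16 at day 1 (73.5 to 93.3), 77.3 ± 7.30 at day 2 (65.5 to 87.3) and 73.1 ± 5.89 at day 3 (64.0 to 79.6). Its level was lowest at day 3 but overlapped vehicle, and neither -0.17 ± 0.07 against vehicle (adjusted p = 0.654) nor -0.19 ± 0.07 against day 1 (adjusted p = 0.312) passed. Grm7 and Grm8 were 0.13 ± 0.05 and 0.17 ± 0.09 above vehicle at day 1 (adjusted p = 0.517 and 0.732).

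MAGUK scaffolds bind receptor tails through PDZ domains, and Dlg4 encodes the one that dominates the postsynaptic density. None of the 4 was called, and over the 3 days their values lay between -0.07 and 0.03. Dlg4 stood at 982 ± 49.8 CPM in vehicle (917 to 1060), 940 ± 26.2 at day 1 (909 to 966), 964 ± 26.1 at day 2 (922 to 989) and 975 ± 63.1 at day 3 (921 to 1100), with overlapping ranges. Dlg1, which traffics AMPA receptors and had the smallest joint p of the class, was 182 ± 10.5 CPM in vehicle (172 to 200), 181 ± 6.18 at day 1 (171 to 189), 182 ± 5.31 at day 2 (176 to 191) and 174 ± 8.03 at day 3 (166 to 189). Dlg2 and Dlg3 encode close relatives of Dlg4, and Dlg2 measured 474 ± 6.15 CPM in vehicle and 466 ± 9.66 CPM at day 1 (SD, n = 6).

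SAPAP proteins, encoded by Dlgap1 to Dlgap4, bridge the MAGUK and Shank layers. None of the 4 was called by edgeR, and each was below vehicle at day 1. Dlgap3 gave the smallest p of the scaffolds: it was 587 to 663 CPM in vehicle (median 613), 515 to 591 at day 1 (median 550), 564 to 605 at day 2 (median 585) and 556 to 679 at day 3 (median 590). The vehicle and day 1 ranges met only at their ends, and the medians of the later days lay between theirs, with the highest day 3 library above every vehicle library. The day 1 difference of -0.15 ± 0.04 had an adjusted p of 0.148 by edgeR, 0.130 by limma voom and 0.0372 by DESeq2. Dlgap1, the most highly counted of the 4, was 658 ± 14.9 CPM in vehicle (640 to 678), 626 ± 19.9 at day 1 (586 to 641), 651 ± 37.3 at day 2 (624 to 723) and 647 ± 14.1 at day 3 (628 to 665), with a day 1 difference of -0.08 ± 0.03 (adjusted p = 0.611). Dlgap2 and Dlgap4 differed by -0.06 to 0.04 over the 3 days.

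Shank proteins form the deeper platform of the postsynaptic density and reach actin. None of the 3 was called, and their values ran from -0.09 to 0.01 over the 3 days. Shank1, the most highly counted, was 902 ± 54.3 CPM in vehicle (823 to 972), 876 ± 77.2 at day 1 (790 to 988), 908 ± 116 at day 2 (812 to 1130) and 867 ± 38.0 at day 3 (807 to 914). Shank3 had the smallest joint p of the class and was 415 ± 20.5 CPM in vehicle (392 to 437), 394 ± 29.7 at day 1 (352 to 432), 403 ± 12 at day 2 (388 to 417) and 389 ± 11.2 at day 3 (370 to 402). The groups overlapped for both genes, and Shank2 lay between -0.09 and -0.04.

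Homer proteins link Shank to metabotropic receptors and to calcium stores. Homer2 was 91.7 ± 5.78 CPM in vehicle (85.1 to 101), 82.3 ± 4.12 at day 1 (76.0 to 86.3), 90.4 ± 9.10 at day 2 (83.0 to 108) and 85.7 ± 3.04 at day 3 (80.7 to 89.3). Its day 1 value of -0.15 ± 0.05 did not pass (adjusted p = 0.408). Homer3, at 4.25 ± 1.21 CPM in vehicle the most weakly counted of the 40, gave the widest errors, with -0.27 ± 0.16 at day 1 and 0.13 ± 0.15 at day 3. Homer1, the family member outside the 40 genes, has an activity-induced short form, and it measured 237 to 380 CPM in vehicle (median 274), 201 to 244 at day 1 (median 218), 214 to 344 at day 2 (median 238) and 215 to 265 at day 3 (median 250). Vehicle libraries of Homer1 were widely spread and overlapped day 1 at their low end, and the day 1 difference of -0.46 ± 0.10 had an adjusted p of 0.0813 by edgeR, 0.106 by limma voom and 0.0427 by DESeq2. The files do not separate its short and long forms.

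CaMKII, the calcium-activated kinase of the spine, is built from Camk2a and Camk2b subunits, and Camk2a transcripts are carried into dendrites. Camk2a was 3820 ± 193 CPM in vehicle (3540 to 4060), 3590 ± 260 at day 1 (3310 to 4060), 3550 ± 100 at day 2 (3450 to 3700) and 3650 ± 170 at day 3 (3500 to 3940). Camk2b was 849 ± 12.5 CPM in vehicle (829 to 862), 811 ± 13.5 at day 1 (792 to 829), 829 ± 28 at day 2 (775 to 853) and 854 ± 26.5 at day 3 (823 to 887). Day 1 libraries were under the vehicle median for both subunits except Day1 2 for Camk2a, and at day 3 Camk2b lay around the vehicle range. Neither -0.08 ± 0.04 nor -0.07 ± 0.03 at day 1 passed (adjusted p = 0.627 and 0.562), and Camk2a at day 2 was -0.10 ± 0.04 (adjusted p = 0.790).

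At day 2 against vehicle, 4 of the 40 genes had an unadjusted p under 0.05 (Grik4 higher, and Camk2a, Synpo and Rnd1 lower), where 5.2% of all genes did and 0.0656% were called. At day 3 it was 2 genes, Grm2 and Shank3, both lower, where 5.64% of all genes did and 0.614% were called. DESeq2 and limma voom gave the same counts of 4 and 2 at an unadjusted p under 0.05. The median of the 40 was -0.01 at day 2 and -0.02 at day 3. Other cell types had moved by then: 4 of 9 microglial markers rose at day 3 by edgeR (3 by limma voom and 5 by DESeq2; list median 0.26), with a summed level of 356 to 459 CPM against 314 to 366 CPM in vehicle. Gfap, a filament gene of astrocytes, was the 1 of 8 astrocyte markers called by each of the 3 tools, and by edgeR it rose by 0.51 ± 0.08 at day 2 and 1.12 ± 0.08 at day 3 on the log2 scale (adjusted p = 0.00116 and 1.77e-10). Of the 8 interneuron markers, 4 at day 2 and 3 at day 3 lay below vehicle at an unadjusted p under 0.05, with none called by the 3 tools. The part of these cell types in the values of the 40 genes was not tested. The 95% intervals were taken gene by gene, with no adjustment over genes. They refer to bulk tissue, so they do not bound changes within the silenced neurons. Of the 37 genes not called at day 1, the intervals of 36 lay within 0.5 of 0 on the log2 scale and those of 32 within 0.25. The widest reached -0.59 (Homer3) and 0.36 (Grm8). At day 2 and at day 3, 36 of 40 intervals lay within 0.25.

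**Figure D4:**
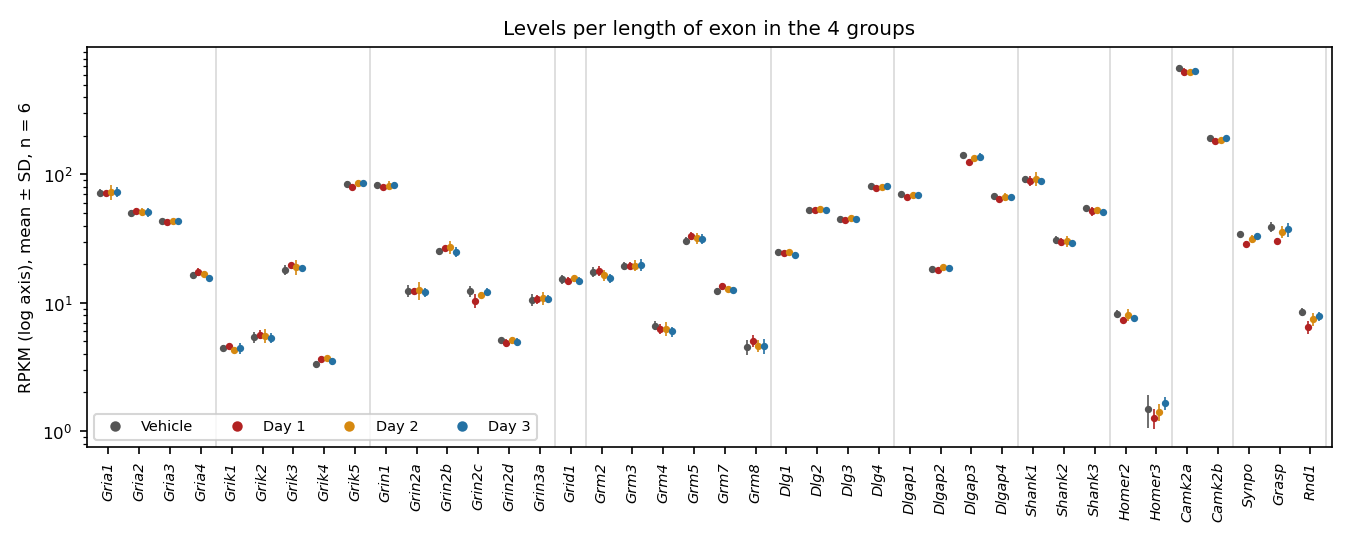
Levels per length of exon (RPKM, log axis) of the 40 genes in the 4 groups, as mean ± SD with n = 6, in the order of their roles. The 4 groups of a gene lie close together compared with the differences between genes, from Homer3 at 1.49 to Camk2a at 676 RPKM in vehicle.

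Compared per length of exon, the levels spanned a wide range in vehicle tissue. Camk2a was at 676 ± 34.1 RPKM and Camk2b at 192 ± 2.81 RPKM (SD, n = 6). Below them came Dlgap3 at 141, Shank1 at 91.8, Grik5 at 84.3, Grin1 at 83.2 and Dlg4 at 81.8 RPKM, so that among the receptor genes Grik5 and Grin1 led. Gria1 was at 71.6, Gria2 at 50.1, Gria3 at 43.5 and Gria4 at 16.4 RPKM. Of the partners of Grin1, Grin2b was at 25.1, Grin2a at 12.4, Grin2c at 12.3 and Grin2d at 5.09 RPKM. Grm5 at 30.4 RPKM led the metabotropic receptors and Grm8 at 4.50 RPKM was lowest. Grasp at 39.2 and Synpo at 34.6 RPKM were in the middle of the range, and Rnd1 at 8.49 RPKM was near the bottom. Each length is the union of annotated exons in another mouse build, so a gene with long alternative ends, such as Grin2b, is placed lower than its coding part alone would place it.

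Relations between subunits were compared as log2 ratios of counts within a library, which do not depend on library scaling. These ratios were chosen after the fits above were seen. The Grin2a to Grin2b ratio, which is known to rise as synapses mature, was -1.94 to -1.64 in vehicle, and at day 1 its mean was -1.84 ± 0.03 against -1.75 ± 0.11 in vehicle (SD, n = 6). The difference of -0.09 did not pass a two-sided exact permutation test (p = 0.0801, adjusted p = 0.385 over 9 tests). Unlike the main fits, the permutation tests of the ratios left sex out, although vehicle held more females. The Gria1 to Gria2 ratio averaged -0.34 ± 0.11 in vehicle and differed by -0.06, -0.01 and 0.02 on days 1, 2 and 3, and the Camk2a to Camk2b ratio averaged 2.17 ± 0.08 and differed by -0.03, -0.07 and -0.07. None of the 9 passed, with adjusted exact permutation p from 0.385 to 0.883.

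**Figure D5:**
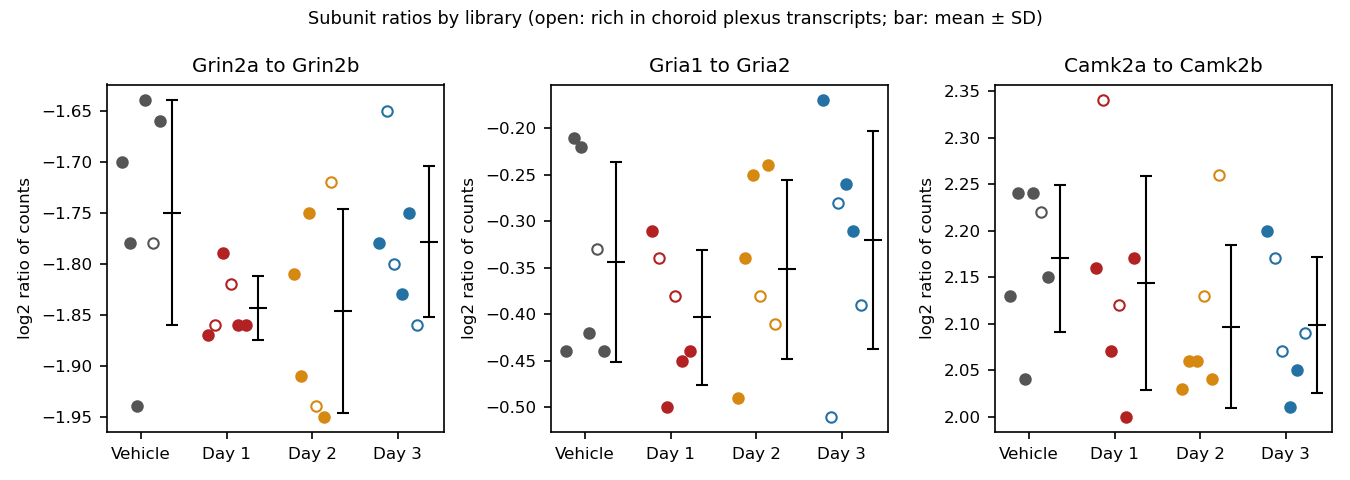
Log2 ratio of counts of 3 subunit pairs in each library by group, with the mean and SD (n = 6) and open points for choroid-rich libraries; the axes do not start at 0. The groups overlap for each ratio, and the day 1 libraries of the Grin2a to Grin2b ratio lie within the vehicle range.

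The days were also compared with each other, using the same day libraries as the contrasts with vehicle, so these values are not independent of those above. From day 1 to day 3, 2 of the 40 genes rose, Grasp by 0.30 ± 0.07 (adjusted p = 0.0364) and Synpo by 0.20 ± 0.05 (adjusted p = 0.0456), while Rnd1 at 0.29 ± 0.08 did not pass (adjusted p = 0.114). Of all genes tested, 0.65% were called and 0.602% were called higher in that comparison. At an unadjusted p under 0.05 there were 9 of the 40, 7 higher and 2 lower (Gria4 and Grm2), where 8.39% of all genes were. Grasp did not pass without the 8 choroid-rich libraries (0.32, adjusted p = 0.121), and with blocks of animal numbers in the fit neither gene passed (adjusted p = 0.122 for Grasp and 0.198 for Synpo). The blocks group libraries by the leading digits of the animal number (79, 87-88, 92-94, 97 and 98), and the labels name no batch. Block 97 held females alone and block 98 males alone, so the blocks overlap with sex. Leaving out Day1 1, 3 or 5 or Day3 1, 4 or 6 left 0 called, and leaving out Vehicle 1 or 6 or Day3 5 left Grasp alone and leaving out Day1 6 left Synpo alone. Without Day1 4 neither passed and Gria4 was called lower. Grasp was also lost without Day1 2, where Grin2c was called instead, and Synpo without Day3 3, where Rnd1 was.

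Between day 1 and day 2, 0 of the 40 were called by edgeR, DESeq2 or limma voom, and 6 had an unadjusted p under 0.05 (7 by the other 2 tools), each of them higher at day 2: Grin2c, Dlgap3, Homer2, Synpo, Grasp and Rnd1. Of all genes, 0.0119% were called and 4.25% had such a p. The value for Grasp was 0.24 ± 0.07 (adjusted p = 0.882). Between day 2 and day 3, 0 were called by any of the 3 tools and 2 had an unadjusted p under 0.05, Gria4 and Grin2b, both lower at day 3, where 0.131% of all genes were called and 4.94% had such a p. In the test of the 3 days jointly, 3 of the 40 were called: Synpo (adjusted p = 0.0174), Grasp (adjusted p = 0.0279) and Rnd1 (adjusted p = 0.0412). With blocks of animal numbers in the fit, 0 of the 40 were called in the joint test. Of all genes, 0.644% were called in that test and 7.07% had an unadjusted p under 0.05, against 9 of the 40.

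Sex was examined because the vehicle group held more females. With group in the model, 0 of the 40 genes were called between males and females by edgeR, DESeq2 or limma voom, and 6 had an unadjusted p under 0.05 by each tool. In males, Grin2a (0.13 ± 0.05), Grin2b (0.10 ± 0.04), Gria2 (0.09 ± 0.03), Dlgap2 (0.07 ± 0.03) and Gria3 (0.06 ± 0.02) had values above those in females, and Dlg4 (-0.06 ± 0.03) a value below, with adjusted p no higher than 0.682 and none past the threshold. Of all genes, 0.0716% were called and 7% had an unadjusted p under 0.05. The interaction of group and sex called 0 of the 40, and 0 had an unadjusted p under 0.05 by edgeR, the tool run for it, where 0% of all genes were called and 3.49% had such a p. The day 1 values of the spine regulators were alike in females (Synpo -0.26, Grasp -0.39, Rnd1 -0.36) and males (-0.24, -0.32 and -0.48), and within either sex none passed.

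Libraries also differed in their immediate early gene level, summarised as the mean log2 CPM of the 9 genes above. Over all 24 libraries, with group and sex fitted, 0 of the 40 genes had a slope on that activity score that was called, and 0 had an unadjusted p under 0.05, by edgeR, DESeq2 or limma voom. Synpo had a slope of 0.01 ± 0.03, Grasp 0.03 ± 0.04 and Rnd1 0.03 ± 0.05 in log2 CPM per log2 unit of the score. Of all genes, 0.274% were called on this slope and 5.63% had an unadjusted p under 0.05. With the score as a covariate the day 1 values were nearly the same, Synpo -0.25, Grasp -0.35 and Rnd1 -0.39, with adjusted p of 0.0543, 0.0705 and 0.0705. The score is taken over bulk tissue, so this fit is not a test of the part of neuronal firing in the day 1 fall.

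The slope on choroid plexus transcripts called 0 of the 40 by the same 3 tools, and 2 had an unadjusted p under 0.05 by edgeR, Camk2b and Grid1, both with a slope below 0 (3 genes by DESeq2 and by limma voom). Of all genes, 1.19% were called on that slope and 12% had an unadjusted p under 0.05. Synpo, Grasp and Rnd1 had slopes of -0.01 ± 0.01, -0.00 ± 0.02 and -0.02 ± 0.02, and each stayed called at day 1 with the choroid plexus score in the model.

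Whether the 3 spine regulators varied together from library to library, apart from the group differences, was examined after they were called. With group and sex removed, Synpo and Grasp correlated over 24 libraries at Pearson r = 0.519 (permutation p = 0.00981, adjusted p = 0.0294) and Spearman rho = 0.552 (permutation p = 0.00614, adjusted p = 0.0184), over 3 pairs tested. The r was 0.425 without the 2 libraries farthest from the median, 0.451 with blocks of animal numbers fitted and 0.565 in the 16 libraries poor in choroid plexus. Pairs of other genes were not examined, so no background for these correlations is given. The permutations shuffled residuals without allowing for the fitted group and sex terms, so their p may be too small. Synpo and Rnd1 had r = -0.175 and rho = -0.0913 (adjusted permutation p = 0.615 and 0.809), and that r was -0.00268 without the 2 farthest libraries, -0.251 with the blocks and -0.383 without the choroid-rich libraries. Rnd1 and Grasp had r = 0.00725 and rho = -0.0522 (adjusted permutation p = 0.972 and 0.809), and that r was -0.197 without the 2 farthest libraries.

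Of the 3 spine regulators, which were called together, Grasp was the one with a promoter in the RefSeq table, so its sequence is shown: the 300 bases from 250 before to 50 after the gene start, chr15:101223957-101224256 on the plus strand of GRCm38.p6, from RefSeq. The capitals mark TATAAA.
Grasp: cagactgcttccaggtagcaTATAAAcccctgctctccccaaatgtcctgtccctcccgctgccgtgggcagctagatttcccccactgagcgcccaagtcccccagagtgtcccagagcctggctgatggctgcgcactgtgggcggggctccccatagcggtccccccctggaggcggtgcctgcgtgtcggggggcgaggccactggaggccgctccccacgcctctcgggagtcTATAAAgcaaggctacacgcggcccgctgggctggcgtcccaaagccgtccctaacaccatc
The window is 66.7% G and C. TATAAA lies at -230 and at -12 from the gene start, on the plus strand.

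Of the 40 genes, 25 had an entry in that RefSeq table, with 38 promoters between them, and Synpo and Rnd1 were not among them. Motifs of activity-regulated factors were searched on both strands. They were the cyclic AMP response element, written TGACGTCA, and the core TGACG that lies within it. The motif of the AP-1 factors was searched as TGANTCA. For the EGR factors the search used the letters GCGNGGGCG. The CArG box of SRF and the site of MEF2 were searched by their usual patterns, and TATAAA can overlap the site of MEF2. The Grasp window held none of them but TATAAA, a motif found in 13.6% of the 32851 promoters of the table and in 10.5% of the 38. The full cyclic AMP element and the CArG box were in none of the 38 (1.79% and 1.63% of all), the core in 15.8% (20.8% of all), AP-1 in 2.63% (7.81% of all) and MEF2 in 5.26% (3.19% of all). EGR was in 21.1% of the 38 and 5.55% of all promoters, and the 38 were richer in G and C, with a median of 62.3% against 52.7%. The genes with an EGR match were Camk2b, Dlgap4, Gria4, Grin1, Grm3, Homer2, Homer3 and Shank3, none of them called in any comparison by edgeR.

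Other genes of the glutamate synapse were read from a list of 63 outside the 40, of which 62 passed the filter. At day 1, 0 of 62 were called by edgeR or limma voom and 1 (Homer1) by DESeq2, and 8 had an unadjusted p under 0.05, each lower. Of all 16767 genes, 7.25% had such a p in either direction, and 723 genes were lower at such a p. Among the 8 were the scaffold genes Homer1, Baiap2 and Begain, the AMPA receptor auxiliary subunit Cnih2, the Rnd1 relative Rnd3 (-0.20 ± 0.08) and the CaMKII inhibitors Camk2n1 and Camk2n2. The median over the 62 was -0.03, with 23 above vehicle and 39 below. At day 2 and day 3, 0 were called by any of the 3 tools, with 1 and 4 genes at such a p by edgeR. Grin3b did not pass the filter, with a mean of 0.227 CPM in vehicle.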

How the data were processed

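The deposited data are raw counts: each gene has a whole number of reads in each of 24 columns, and every column was used. Per the submitters' processing notes, fastp 0.23.1, STAR 2.7.9a and DESeq2 1.32.0 were used with mm39; what counted the reads, with which annotation and strand setting, is not given in the sources used here, so reads of overlapping or antisense genes cannot be told apart. Symbols were found for 52083 identifiers.

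Counts were tested with edgeR 4.0.16 in R 4.3.3 (TMM factors 0.972 to 1.015, filterByExpr with minimum count 10 and total 15, group and sex over 24 libraries, two-sided quasi-likelihood tests). The procedure was also run on data simulated from the fitted model. How well it recovers changes as small as those of the called members is not given here. The biological coefficient of variation was 8.51%. DESeq2 1.42.0 and limma voom 3.58.1 were alternatives, beside other scaling, filters, covariates and left-out libraries. Depth, at 16.6 to 23.7 M reads per library, leaves weakly counted genes such as Homer3 with the widest errors.

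The members and lists were chosen with earlier results of these data known. Fits without the choroid-rich libraries or with the choroid plexus or activity score, the ratios and the correlations were chosen after seeing the data. Genes were named by a rule: each called member in full, and per role the smallest joint p and the highest count. RPKM used exon lengths of GENCODE M21 (GRCm38); no coordinates of mm39 are given. Activity and choroid scores are means of log2 CPM (prior count 2), centred per gene.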

Additional observations from a re-analysis of the deposited data

Results flagged for a closer look

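In 12 of 160 groups of 6 libraries (7.5%, where chance gives about 1 in 20), a library stood apart from the other 5 in the CPM of a member by Dixon's test. Day2 3 was the highest of its group for 4 genes: Grin2a at 243 CPM (next library 192), Dlgap1 at 723 (next 655), Dlgap4 at 430 (next 377) and Homer2 at 108 (next 91.8). Day3 1 was the highest for Dlg4 at 1100 CPM (next 981) and Dlgap4 at 406 (next 375), and the lowest for Grm7 at 48.2 (next 54.0). Day1 5 was the highest for Grm7 at 65.2 CPM (next 57.3) and the lowest for Homer3 at 2.32 (next 3.68). Day3 3 was the highest for Dlg3 at 251 CPM (next 239), Day1 4 the lowest for Dlgap1 at 586 (next 628), and Day2 6 the lowest for Camk2b at 775 (next 829). Synpo, Grasp and Rnd1 had no such library in any group.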

How the results depend on the processing

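Of the 40 genes, 3 were called at day 1, 2 from day 1 to day 3 and 3 in the joint test. At day 1 the count was 4 with DESeq2 (Dlgap3 added) and without a filter (Grin2c added), 2 with upper-quartile factors (Grasp lost), 1 with library totals alone and 0 in females alone, in males alone, against a 1.2-fold change and with the activity score as a covariate, and 0 to 3 over the fits that left out 1 library. From day 1 to day 3 it was 5 without a filter, 1 with the 2 groups alone, and 0 with blocks of animal numbers, in females alone, in males alone, against a 1.2-fold change and with the activity score, and 0 to 2 with 1 library left out. Jointly it was 5 without a filter, 1 with the activity score, and 0 with blocks of animal numbers, in females alone and in males alone, and 0 to 3 with 1 library left out. Between day 1 and day 2 it was 1 (Grasp) without a filter in place of 0. The other comparisons gave 0 under each alternative run. Fits within a sex hold fewer libraries; the cause of the other changes was not tested. At day 1 the log2 fold changes over the alternatives were -0.28 to -0.24 for Synpo, -0.39 to -0.32 for Grasp and -0.48 to -0.33 for Rnd1. The difference in the Grin2a to Grin2b ratio at day 1 was -0.13 to -0.07 with 1 library left out, and passed without Vehicle 3. The residual correlation of Rnd1 and Grasp, 0.00725, changed sign to -0.197 without the 2 farthest libraries and to -0.113 without the choroid-rich libraries. Without a filter, 159 genes were called at day 1 among 36066 and with DESeq2 75 among 16767, against 11. No paired analysis was possible because library numbers were given in order of listing and do not tie animals across groups.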
